A study of Drosophila melanogaster with 34 samples.

Results

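The gene *phu* (FBgn0043791) encodes an alkaline phosphatase of *Drosophila melanogaster* and is 1 of the 16495 genes counted in the RNA-seq libraries of this series. It was chosen by its log2 fold change with copper in the tolerant strains, the most negative of any gene called down-regulated there, so its values in those strains are given as a description without a test. The values of the sensitive strains, of the other alkaline phosphatase genes and of nearby genes were not used in that choice. The libraries were made from whole mated females of 6 inbred European strains, 3 to 7 days old at exposure. GIM-012, MUN-008 and MUN-020 are copper tolerant and AKA-018, COR-018 and JUT-008 are copper sensitive. Flies of each strain spent 24 h in tubes with filter paper carrying 20 mM CuSO4 (copper sulphate) in 5% sucrose, or the same solution without copper as the control. Each library came from a pool of 20 females, and each strain and treatment had 3 libraries, except the controls of AKA-018 and MUN-020, which had 2. Flies that had died by then in JUT-008 and COR-018 were discarded, so the pools of these strains are of survivors. Each class is 3 genotypes, and a difference between the classes is a difference between those genotypes.

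Alkaline phosphatases are metal-dependent enzymes, with zinc and magnesium in the active site, that release phosphate from many phosphate esters at alkaline pH. In animals they are usually tethered to the outer face of the cell membrane by a lipid anchor, and in the fly they are best known from epithelia such as the midgut and the Malpighian tubules, the excretory organs. The *D. melanogaster* genome holds a family of such genes, most of them named *Alp* and a number. In the RefSeq table of fly genes *phu* carries the synonyms Alp3 and CG8147. No tissue was dissected, and the levels below are averages over the whole body.

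*phu* lies on the forward strand of chromosome arm 3R at 9494801 to 9496723 (dm6), in a single annotated transcript of 2 exons of 142 and 1720 bases separated by an intron of 61 bases. The 5′ untranslated region has 87 bases and the 3′ untranslated region has 134. No other annotated gene overlaps it, and reads were counted by strand, so its counts are not shared with an overlapping or antisense gene.

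The libraries held between 22796637 and 42567920 counted reads (median 35393968). All 5 metallothionein genes, which encode small cysteine-rich metal-binding proteins, were called up-regulated in both classes, where 1.81% of the genes tested were called up-regulated in the sensitive and 1.02% in the tolerant strains. A gene was called where its edgeR adjusted *p*-value was below 0.05 and its change exceeded 1.5-fold. The summed level of the metallothioneins was higher in every copper library than in any control library of the same strain. Transcripts of the male accessory gland and testis, which females should lack, were nearly absent from the tolerant libraries. Of 26 such genes listed, 9 were in the table, so the level of male transcripts can be understated. The summed level of the 9 genes was at most 0.132 CPM in the tolerant libraries (CPM is the read count scaled to the size of the library). It reached 20.9 CPM or more in 9 sensitive libraries, namely both AKA-018 controls, COR-018 control replicate 4, COR-018 copper replicates 1 and 3, JUT-008 control replicates 1 and 2, and JUT-008 copper replicates 1 and 3. In the other 8 sensitive libraries it was at most 0.128 CPM. In AKA-018 it went with the treatment, at 39.9 and 61.7 CPM in the controls and at most 0.0945 CPM after copper.

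In every strain *phu* was lower after copper. All levels that follow are CPM after TMM normalization, which scales libraries to a common composition. In GIM-012 the control libraries had 6.58, 9.17 and 4.30 CPM and the copper libraries 1.89, 1.01 and 1.30 CPM. In MUN-008 the controls had 18.1, 32.9 and 18.3 CPM, and after copper 2.14, 2.25 and 2.07 CPM remained. In MUN-020 the level was 43.3 and 50.8 CPM in the controls and 2.82, 5.18 and 3.995 CPM after copper. In each of the 3 tolerant strains the lowest control library lay above the highest copper library, by a factor of 2.28, 8.07 and 8.35 in that order.

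The sensitive strains had the same order. In AKA-018 the controls had 35.9 and 46.0 CPM and the copper libraries 7.18, 4.86 and 7.72 CPM. In COR-018 the controls had 3.66, 1.61 and 14.1 CPM, the last of them in replicate 4, and the copper libraries 1.35, 0.708 and 0.763 CPM. In JUT-008 the controls had 2.31, 3.17 and 1.75 CPM and the copper libraries 0.211, 0.405 and 0.269 CPM. The groups did not overlap in any of these strains either, but the gap was a factor of only 1.19 in COR-018, against 4.65 in AKA-018 and 4.32 in JUT-008. The JUT-008 copper values rest on 7, 12 and 9 reads. In these whole-body pools, fewer cells that transcribe *phu* and less *phu* RNA per cell cannot be told apart.

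**Figure D1:**
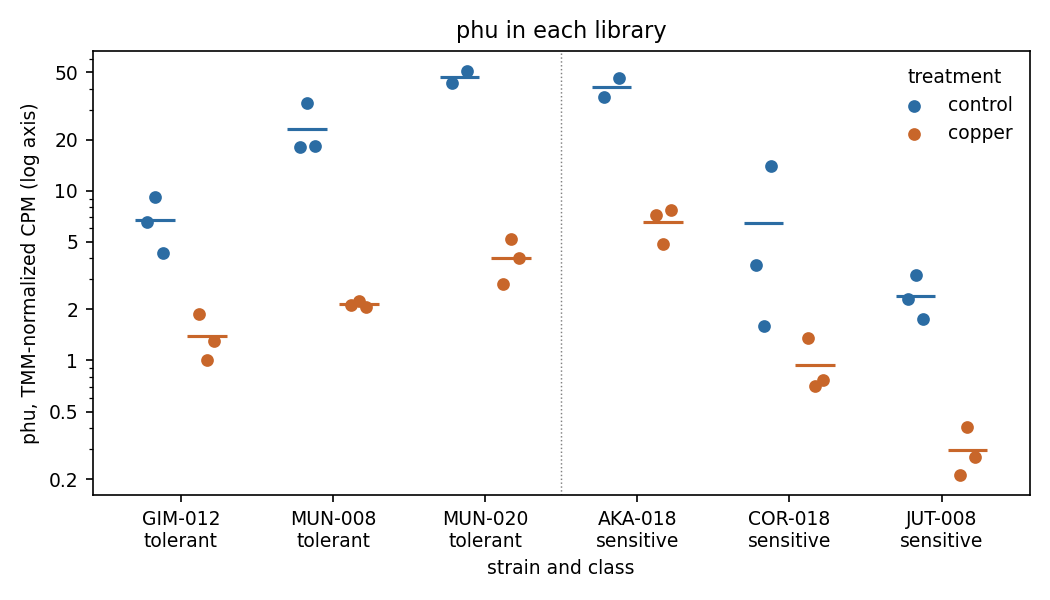
Level of *phu* in each of the 34 libraries (TMM-normalized CPM, log axis) by strain and class, with controls in blue and copper in orange; horizontal lines are the means of each strain and treatment. In all 6 strains every copper library lies below every control library, while the control levels themselves run from 1.61 to 50.8 CPM.

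The level of *phu* differed widely between strains. The mean over control libraries was highest in MUN-020 (47.0 ± 5.34 CPM, SD, n = 2), followed by AKA-018 (40.9 ± 7.14, n = 2), MUN-008 (23.1 ± 8.46, n = 3), GIM-012 (6.69 ± 2.44, n = 3), COR-018 (6.45 ± 6.69, n = 3) and JUT-008 (2.41 ± 0.717, n = 3). The ranges of MUN-020 and AKA-018 overlapped, as did those of GIM-012 and COR-018 and those of COR-018 and JUT-008, whereas MUN-008 stood apart from both of its neighbours in this order. The highest control mean was 19.5 times the lowest. After copper the means were 6.58 ± 1.52 CPM in AKA-018, 3.999 ± 1.177 in MUN-020, 2.15 ± 0.0898 in MUN-008, 1.40 ± 0.447 in GIM-012, 0.941 ± 0.357 in COR-018 and 0.295 ± 0.0995 in JUT-008 (SD, n = 3 each), a span of 22.3-fold. AKA-018 and MUN-020 exchanged places and the other 4 strains kept their order.

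Because of this spread, copper and control libraries overlapped when strains were pooled. Of the copper libraries, 10 had more *phu* than the lowest control library. The sensitive controls ran from 1.61 to 46.0 CPM (median 3.41, n = 8) and the sensitive copper libraries from 0.211 to 7.72 CPM (median 0.763, n = 9). The tolerant controls ran from 4.30 to 50.8 CPM (median 18.2, n = 8) and the tolerant copper libraries from 1.01 to 5.18 CPM (median 2.14, n = 9). Both classes held strains of high and of lower *phu*, and the classes overlapped under either treatment.

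Among the sensitive strains, whose basal levels were not part of the choice, the control levels differed (edgeR quasi-likelihood test across the 3 strains, adjusted *p*-value = 0.00579, where 60.3% of 11940 genes had an adjusted *p*-value below 0.05). *phu* was lower in JUT-008 than in AKA-018, with a log2 difference of -4.11 ± 0.81 (± SE, edgeR adjusted *p*-value = 0.00368, with 56.8% of genes below 0.05 in that pair). It was lower in COR-018 than in AKA-018, with a log2 difference of -2.71 ± 0.76 (edgeR adjusted *p*-value = 0.0350, with 27% of genes below 0.05). JUT-008 and COR-018 differed by -1.40 ± 0.72, which did not pass the test (edgeR adjusted *p*-value = 0.159, with 41% of genes below 0.05). Male transcripts were uneven between these controls, at 39.9 and 61.7 CPM in AKA-018. Their part in the basal differences was not tested.

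Across the sensitive strains *phu* was down-regulated by copper, with a log2 fold change of -2.80 ± 0.35 (SE, 95% interval -3.53 to -2.07). That is a 6.97-fold decrease, leaving 14.3% of the control level. The change passed the test of the edgeR fit with strain as a term (17 libraries, adjusted *p*-value = 5.1e-05). By the same rule as for the metallothioneins, 5.94% of 12308 genes were called down-regulated. *phu* had the 76th most negative log2 fold change of all genes tested there and the 65th of the genes called. Above it in that order stood eggshell and seminal fluid genes, among others, such as *Cp38*, a chorion protein gene, at -4.01 ± 1.13, and *Sfp24Ba*, a seminal fluid protein gene, at -4.61 ± 1.27 (both chosen after their values were seen). *Sfp24Ba* belongs to the male genes, whose summed level was uneven between the sensitive libraries and went with the treatment in AKA-018.

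An exact two-sided permutation of treatment labels within the sensitive strains gave a mean difference of -2.63 in log2 CPM and *p* = 0.00025, the smallest value that the 4000 arrangements can give. Without COR-018 control replicate 4, which had the highest *phu* level of its group and 89.4 CPM of male transcripts, the difference was -2.35 and the exact permutation *p* = 5e-04, again the smallest possible, and the fitted log2 fold change was -2.41 with an edgeR adjusted *p*-value of 5.0e-05. With only the 8 sensitive libraries that held under 1 CPM of male transcripts, which leave AKA-018 without a control, the log2 fold change was -1.89. That value rests on COR-018 control replicates 1 and 2 against copper replicate 4, and on JUT-008 control replicate 3 against copper replicate 2. When the counts were summed per strain and treatment, so that the 3 strains were the replicates, the log2 fold change was -2.75 ± 0.14 but did not pass the test (edgeR adjusted *p*-value = 0.127).

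Fitted one at a time, the sensitive strains had log2 fold changes between -3.04 and -2.64. In AKA-018 *phu* changed by -2.64 ± 0.21 (edgeR adjusted *p*-value = 8.8e-05, where 5.47% of genes were called down-regulated). Male transcripts went with the treatment in AKA-018, so copper and male material cannot be told apart in that value. In JUT-008 the change was -3.04 ± 0.41 (edgeR adjusted *p*-value = 0.00980, where 3.11% were called down-regulated). In COR-018 it was -2.76 ± 0.85, with a 95% interval from -4.82 to -0.70, and did not pass the test (edgeR adjusted *p*-value = 0.0578, where 8.17% were called down-regulated). Without control replicate 4 the COR-018 value was -1.45 (edgeR adjusted *p*-value = 0.0927), and without control replicate 2, the lowest control, it was -3.22 (edgeR adjusted *p*-value = 0.0177). The JUT-008 call was lost without control replicate 2 (edgeR adjusted *p*-value = 0.0511) and without copper replicate 1 (edgeR adjusted *p*-value = 0.0606). A difference between the sensitive strains in the copper effect on *phu* was not detected (edgeR test of the strain by copper terms, adjusted *p*-value = 0.987, where 2.02% of genes passed).

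In the tolerant strains, where 0.509% of 11602 genes were called down-regulated, the log2 fold change was -3.09 ± 0.24 (95% interval -3.58 to -2.59), which leaves 11.8% of the control level. This is the value that chose the gene. Next in the order of decrease among called genes were *asRNA:CR45046*, an antisense RNA, at -2.71 ± 0.32 and *CG32751* at -2.06 ± 0.24. By strain, *phu* changed by -2.27 ± 0.35 in GIM-012 (2.15% of genes called down-regulated), by -3.42 ± 0.26 in MUN-008 (0.696%) and by -3.53 ± 0.21 in MUN-020 (2.24%). In MUN-008 and MUN-020 no gene tested had a more negative log2 fold change, and in GIM-012 1 gene did, but these libraries chose the gene. In the sensitive strains, which were not used in the choice, *phu* stood lower in the same order. It had place 17 in JUT-008, place 106 in COR-018 and place 393 in AKA-018.

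The share of the control mean left after copper was 8.50% in MUN-020, 9.32% in MUN-008, 12.2% in JUT-008, 14.6% in COR-018, 16.1% in AKA-018 and 20.9% in GIM-012. Tolerant strains stood at both ends of this order. A difference between the classes in the copper effect was not tested for *phu*, since the tolerant values chose it.

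**Figure D2:**
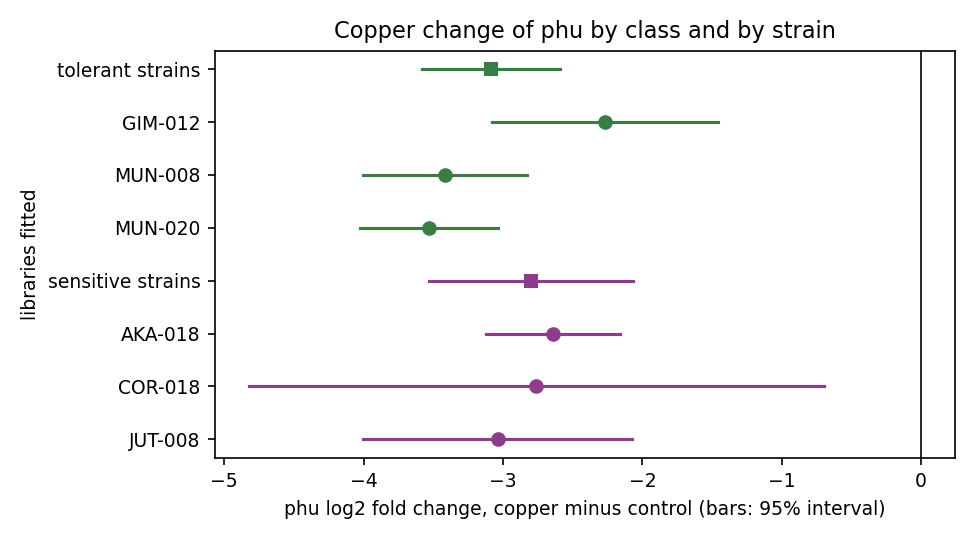
Log2 fold change of *phu* with copper (x axis, copper minus control) in the fit of each class (squares) and of each strain alone (circles), tolerant in green and sensitive in purple; bars are 95% intervals. All 8 estimates are negative, from -3.53 in MUN-020 to -2.27 in GIM-012, and the interval of COR-018 is the widest.

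The other alkaline phosphatase genes were called down-regulated more often in the sensitive than in the tolerant strains, as were genes at large. Of 12 further genes named *Alp* and a number, 10 were in the table, and *Alp1* and *Alp2* were not analysed here. In the sensitive strains 5 of the 10 were called down-regulated, against 5.94% of all genes, and none up-regulated. All 10 estimates were negative, with a median of -1.01 against -0.02 over all genes tested. Of the same 10, 9 had enough reads to be tested in the tolerant strains. By edgeR 0 of the 9 were called, where only 0.509% of all genes were called down-regulated. Their median was -0.28 against -0.00 over all genes. At an unadjusted *p*-value below 0.05 there were 4 of the 9, against 11.8% of the 11602 genes tested, and DESeq2 called 2, *Alp10* and *Alp7*, against 0.741% of all genes called down-regulated.

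*Alp10* and *Alp9* had the decreases closest in size to that of *phu* in the sensitive strains. They are divergent neighbours on chromosome arm 3L, 269 bases apart. *Alp10* ran from 6.71 to 44 CPM (median 22.3) in the sensitive controls and from 0.505 to 14.0 CPM (median 2.65) after copper. *Alp9* ran from 3.06 to 31.6 CPM (median 10.98) and from 0.202 to 16.6 CPM (median 1.32). The ranges overlapped for both genes when the 3 strains were pooled. Within strains the log2 fold change of *Alp10* was -3.19 ± 0.41 (edgeR adjusted *p*-value = 8.6e-05) and that of *Alp9* was -2.87 ± 0.51 (edgeR adjusted *p*-value = 0.00105).

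The tolerant controls of *Alp10* ran from 13.9 to 78.8 CPM (median 22.5) and its tolerant copper libraries from 5.89 to 60.2 CPM (median 21.3), and the change of -0.75 ± 0.21 did not pass the test (edgeR adjusted *p*-value = 0.0676). *Alp9* had -0.46 ± 0.20 there (edgeR adjusted *p*-value = 0.341). The copper effect differed between the classes for both genes, being more positive in the tolerant strains by 2.41 ± 0.46 for *Alp10* (edgeR adjusted *p*-value = 0.00437) and by 2.33 ± 0.53 for *Alp9* (edgeR adjusted *p*-value = 0.0112). In that test of the class by copper term 4.13% of 12511 genes had an adjusted *p*-value below 0.05, and 3.41% did so with the more positive effect in the tolerant strains. The term was tested against the spread between libraries and was not fitted with the strains as replicates.

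*Alp6* and *Alp5* followed the same division at smaller size. In the sensitive strains *Alp6* changed by -1.33 ± 0.14 (edgeR adjusted *p*-value = 1.5e-05) and *Alp5* by -1.03 ± 0.16 (edgeR adjusted *p*-value = 0.000361). The tolerant values were -0.13 ± 0.16 and 0.01 ± 0.15, and neither passed. The difference between the classes was 1.21 ± 0.23 for *Alp6* (edgeR adjusted *p*-value = 0.00431) and 1.05 ± 0.23 for *Alp5* (edgeR adjusted *p*-value = 0.00925). *Alp4*, known from the Malpighian tubules and the brain, was called in the sensitive strains at -0.97 ± 0.18 (edgeR adjusted *p*-value = 0.00163) and had -0.44 ± 0.14 in the tolerant strains (edgeR adjusted *p*-value = 0.154). Its class by copper term of 0.54 ± 0.25 did not pass (edgeR adjusted *p*-value = 0.201).

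The remaining members were not called in either class. *Alp12* had -0.29 ± 0.06 in the sensitive strains, below the fold threshold, and -0.02 ± 0.09 in the tolerant strains. *Alp13* had -0.13 ± 0.11 and 0.30 ± 0.16. *Alp8* was uneven between libraries, from 0.0312 to 73.3 CPM among the sensitive controls, and had -1.002 ± 0.63 and -0.28 ± 0.39. *Alp7* had at most 34 reads in any library, with changes of -1.94 ± 0.72 and -1.94 ± 0.54. *Alp11* had at most 44 reads and a change of -0.68 ± 0.79 in the sensitive strains, and it was not tested in the tolerant strains. The signs of *Alp5*, *Alp6*, *Alp8* and *Alp12* in the tolerant strains changed when single strains or libraries were left out, and that of *Alp5* also when libraries were scaled by size alone.

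The 5 calls in the sensitive strains became 1, *Alp6* at -1.19, when only the 8 libraries with under 1 CPM of male transcripts were fitted. That fit compares COR-018 copper replicate 4 and JUT-008 copper replicate 2 with the controls left in each of these strains. Its log2 fold changes were -2.56 for *Alp10*, -2.32 for *Alp9*, -0.75 for *Alp5* and -0.83 for *Alp4*, each less negative than with all libraries. The calls became 0 with the strains as replicates, where 6 of the 10 genes had an unadjusted edgeR *p*-value below 0.05, against 24.5% of all genes in that fit. The log2 fold changes with the strains as replicates were -3.08 for *Alp10*, -2.71 for *Alp9*, -1.28 for *Alp6*, -0.998 for *Alp5* and -0.89 for *Alp4*.

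**Figure D3:**
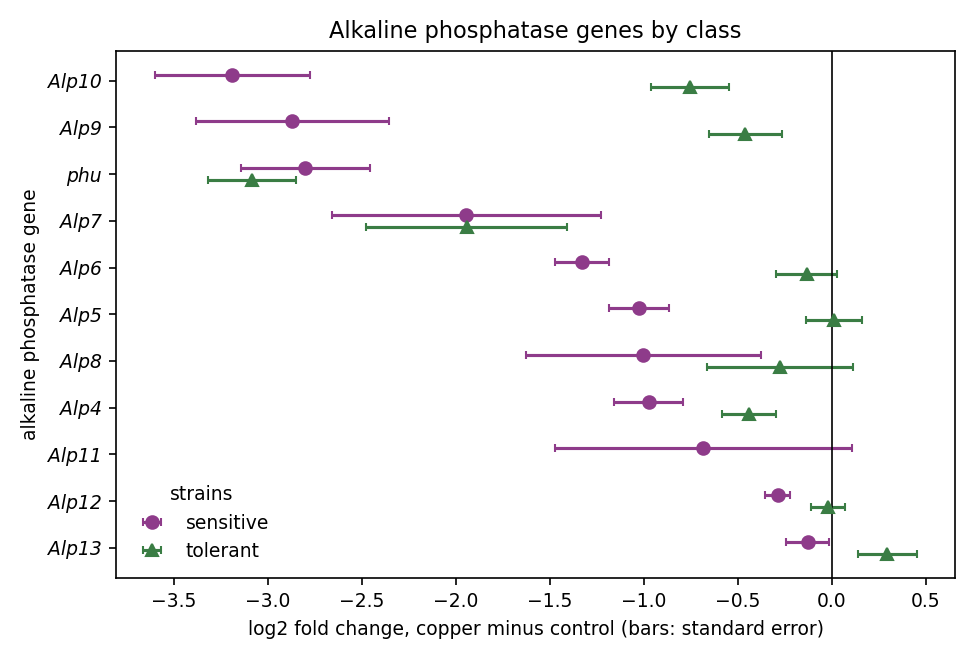
Log2 fold change with copper (x axis, copper minus control) of *phu* and 10 other alkaline phosphatase genes in the sensitive strains (purple circles) and the tolerant strains (green triangles), ordered by the sensitive value; bars are standard errors. *phu* and the low-count *Alp7* have a value under -1 in both classes, while *Alp10*, *Alp9*, *Alp6* and *Alp5* lie well to the left only in the sensitive strains.

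The low place of *phu* in the tolerant strains follows from how it was chosen, so its values there stand beside those of the family as a description. In GIM-012 *phu* had a log2 fold change of -2.27, while *Alp10* had -0.10, *Alp9* 0.14, *Alp4* 0.16, *Alp6* 0.57 and *Alp5* 0.68. The summed level of the 10 other genes was 178 to 274 CPM in the GIM-012 controls and 237 to 274 CPM after copper, so it did not fall while *phu* did. In MUN-008 the same 5 genes had between -1.47 (*Alp10*) and -0.39 (*Alp5*), against -3.42 for *phu*. In MUN-020 they had between -0.85 (*Alp4*) and -0.29 (*Alp5*), against -3.53. COR-018 was the strain in which *Alp9*, at -4.69, and *Alp10*, at -4.68, had more negative values than *phu*, at -2.76. In AKA-018 the values were -2.64 for *phu*, -2.12 for *Alp10* and -1.49 for *Alp9*, and in JUT-008 they were -3.04, -2.76 and -2.40. When GIM-012 was left out of the tolerant fit, 3 of the other genes were called down-regulated by edgeR in place of 0, namely *Alp10*, *Alp9* and *Alp4*. More genes at large passed in that fit too. An unadjusted edgeR *p*-value below 0.05 was reached by 28.8% of all genes, against 11.8% with GIM-012 kept.

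**Figure D4:**
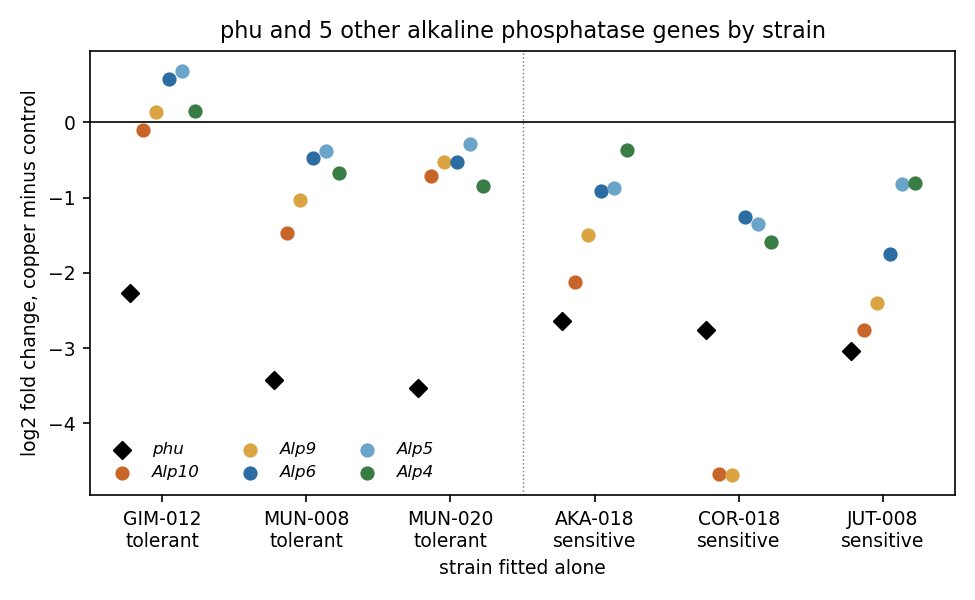
Log2 fold change with copper (y axis, copper minus control) in each strain fitted alone, for *phu* (black diamonds) and the 5 other alkaline phosphatase genes called in the sensitive strains (circles). *phu* lies between -3.53 and -2.27 in all strains, while the other genes are near or above 0 in GIM-012 and reach -4.69 in COR-018.

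By FPKM, which divides the CPM by the length of the exons in kilobases, *phu* was a mid-ranking member of the family. In the tolerant controls it had a mean of 12.3 FPKM and stood in place 6 of 11, below *Alp4* (68.4), *Alp5* (22.9), *Alp6* (22.5), *Alp10* (20.2) and *Alp9* (14.2) and above *Alp12* (8.62). After copper it had a mean of 1.35 FPKM there and stood in place 8. In the sensitive strains it was at 7.28 FPKM in the controls, place 7, and 1.40 FPKM after copper, place 9. *Alp4* was the family member with the highest mean in all 4 groups.

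Other phosphate-releasing enzymes changed less than *phu* in the sensitive strains. For 9 acid phosphatase, inositol phosphate phosphatase and 5′ nucleotidase genes in the table, the median change in the sensitive strains was -0.40, against -0.02 over all genes. Called down-regulated there were 4 of the 9, against 5.94% of all genes. They were *CG42249* (-0.94 ± 0.10), *Mipp1* (-0.80 ± 0.13), which removes phosphate from inositol polyphosphates, *veil* (-0.72 ± 0.09), a 5′ nucleotidase gene, and *CG9449* (-0.59 ± 0.11). Of the 9, 1 was called down-regulated in the tolerant strains, against 0.509% of all genes. It was *CG9451* at -0.77 ± 0.16, and the median over the 9 was -0.13. Of 4 genes of phosphate transport, *Picot*, a cotransporter gene of the phosphate family, was called by edgeR in the sensitive strains at -0.59 ± 0.10, just past the fold threshold, and was not called by DESeq2. In the tolerant strains 0 of the 4 were called by edgeR or by DESeq2, and 2 had an unadjusted edgeR *p*-value below 0.05, against 11.8% of all genes. None of these 13 genes had a change as large as that of *phu* in the sensitive strains. In the tolerant strains *phu* was chosen for its decrease, so sizes are not compared there.

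Markers of gut and tubule moved with *phu* in some strains and not in others. In the sensitive strains 21 of 40 tested digestive enzyme genes of the midgut were called down-regulated and 3 up-regulated, against 5.94% and 1.81% of all genes. In the tolerant strains 3 of 41 were called down-regulated and 6 up-regulated, against 0.509% and 1.02% of all genes. The trypsin gene *epsilonTry* had the most negative value in the sensitive strains, -2.80 ± 0.27, and *Jon65Aiv*, a serine protease gene, in the tolerant strains, -0.87 ± 0.17. The summed level of this list went the other way from *phu* in GIM-012, where it was 6365 to 9651 CPM in the controls and 10247 to 12115 CPM after copper, higher in every copper library while *phu* was lower in every one. In MUN-008 it went from 8126 to 10031 CPM in the controls to 7022 to 7489 CPM, in MUN-020 from 14229 to 14586 CPM to 9772 to 11085 CPM, and in AKA-018 from 13644 to 15924 CPM to 6431 to 8684 CPM. In COR-018 it went from 6627 to 9634 CPM to 2395 to 3287 CPM, and in JUT-008 the ranges overlapped, at 2873 to 5699 CPM and 2837 to 3015 CPM.

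In the sensitive strains 5.94% of all genes were called down-regulated. So were all 3 markers of the copper cell region, the acid-secreting part of the midgut. They were the proton pump subunit gene *Vha100-4* (-1.96 ± 0.37) and the transcription factor genes *lab* (-1.08 ± 0.28) and *Ptx1* (-0.61 ± 0.16). In the tolerant strains 0 of the 3 were called by edgeR, 1 had an unadjusted edgeR *p*-value below 0.05, and DESeq2 called 1. The tolerant values were -0.60 ± 0.17 for *Vha100-4* (edgeR adjusted *p*-value = 0.0709), -0.17 ± 0.15 for *lab* and 0.002 ± 0.13 for *Ptx1*. Of 12 Malpighian tubule markers, *Irk3*, a potassium channel gene, and *Oatp58Db*, an organic anion transporter gene, were called in the sensitive strains at -1.29 ± 0.08 and -0.90 ± 0.13, and *Irk3* in the tolerant strains at -0.67 ± 0.13. In every strain but GIM-012, the copper cell sum and the tubule sum were each lower in all copper libraries than in any control. In GIM-012 the copper cell sum was 36.5 to 53.2 CPM in the controls and 35.5 to 46.2 CPM after copper. The tubule sum there was 778 to 822 CPM in the controls and 699 to 804 CPM after copper. Eggshell genes were called down-regulated in 14 of 15 cases in the sensitive strains, against 5.94% of all genes, with a median of -3.24. By edgeR 0 of 15 were called in the tolerant strains, against 0.509% of all genes, with a median of -0.88. In the tolerant strains 12 of the 15 had an unadjusted edgeR *p*-value below 0.05, all of them negative, and DESeq2 called 6, against 6.0% and 0.741% of all genes lower by the same rules. The part of these lists in the change of *phu* was not tested.

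The genes most like *phu* were sought by the correlation of log2 CPM over all 34 libraries, among 12510 genes. Such a correlation holds strain differences and copper differences together, since the libraries share both, and it is given as a description. *CG12116* was the most alike (Pearson's r = 0.937, Spearman's rho = 0.954), followed by *CG5404* (0.922), *CG3348* (0.912), *CG9702* (0.907) and *nemy* (0.892), a cytochrome b561 gene. The 95th percentile of r over all candidates was 0.670. The copper decrease is part of this likeness, so calls among these genes follow in part from how they were found. All 5 were called down-regulated in the sensitive strains, where 5.94% of all genes were. Their values ran from -1.79 ± 0.17 (*CG3348*) to -1.05 ± 0.11 (*nemy*), which is less than *phu*. Of them *CG12116* (-1.04 ± 0.14), *CG3348* (-0.97 ± 0.17), *CG9702* (-0.64 ± 0.14) and *CG5404* (-0.61 ± 0.15) were also called in the tolerant strains, and *nemy* (-0.43 ± 0.11) was not. Over all genes tested in the tolerant strains, 0.509% were called down-regulated. With each of the 17 tolerant libraries removed in turn, *CG5404* was no longer called in 8 cases, while its log2 fold change lay between -0.68 and -0.55 and its edgeR adjusted *p*-value reached 0.0788. *CG12116* was far more abundant than *phu*, at 33.2 to 635 CPM.

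The lowest correlations were those of *Adsl* (r = -0.827), which encodes adenylosuccinate lyase of purine synthesis, *Pgm2a* (-0.820), a phosphoglucomutase gene, and *rad50* (-0.804), a gene of DNA break repair. Their copper changes were small, between 0.29 ± 0.07 (*rad50*) and 0.52 ± 0.06 (*Adsl*) in the sensitive strains and between 0.10 ± 0.06 (*Adsl*) and 0.20 ± 0.08 (*rad50*) in the tolerant strains. Within the family r with *phu* was 0.777 for *Alp4*, 0.741 for *Alp6*, 0.712 for *Alp10*, 0.705 for *Alp9* and 0.693 for *Alp12*, and it was near 0 for *Alp8* (0.0035) and *Alp13* (-0.0028).

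After the mean of each strain and treatment was subtracted, the correlation shows which genes varied with *phu* among libraries of one group. It was highest for *CG34203* (0.787), *Nadk1a* (0.787), an NAD kinase gene, *CG2772* (0.774), *CG17570* (0.760) and FBgn0034711 (0.757), an identifier with no name in the tables used here, where the 95th percentile over all genes was 0.460. The *phu* level of COR-018 control replicate 4 was 1.69 log2 units above the mean of its group. Without that library r was between 0.558 (*CG34203*) and 0.674 (*Nadk1a*) for the 5 genes, where the 95th percentile over all genes was 0.521, and 0 of the 5 stayed among the first 5. The same was so when ranks were used with all libraries. *Nadk1a* changed alike in the 2 classes, at -0.33 ± 0.05 and -0.34 ± 0.06, below the fold threshold. FBgn0034711 was called in both, at -1.94 ± 0.37 and -1.47 ± 0.23, and *CG17570* also, at -0.82 ± 0.23 and -0.70 ± 0.15. *CG34203* and *CG2772* were called in neither class.

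None of the 4 tested nearby genes given here was called down-regulated with copper. *CG16779* lies 1123 bases upstream on the opposite strand and had a log2 fold change of -0.12 ± 0.12 in the sensitive strains and 0.39 ± 0.23 in the tolerant strains. In the same order *CG8149* had 0.06 ± 0.05 and -0.02 ± 0.06, and *rump*, which encodes an RNA-binding protein, had 0.13 ± 0.05 and -0.01 ± 0.06. *GstZ2*, a glutathione S-transferase gene, was called up-regulated in the sensitive strains at 0.59 ± 0.17 (edgeR adjusted *p*-value = 0.0222, where 1.81% of genes were called up-regulated) and had 0.40 ± 0.11 in the tolerant strains (edgeR adjusted *p*-value = 0.0724). *lncRNA:CR45203*, inside *CG16779*, had at most 8 reads in any library and was not tested.

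**Figure D5:**
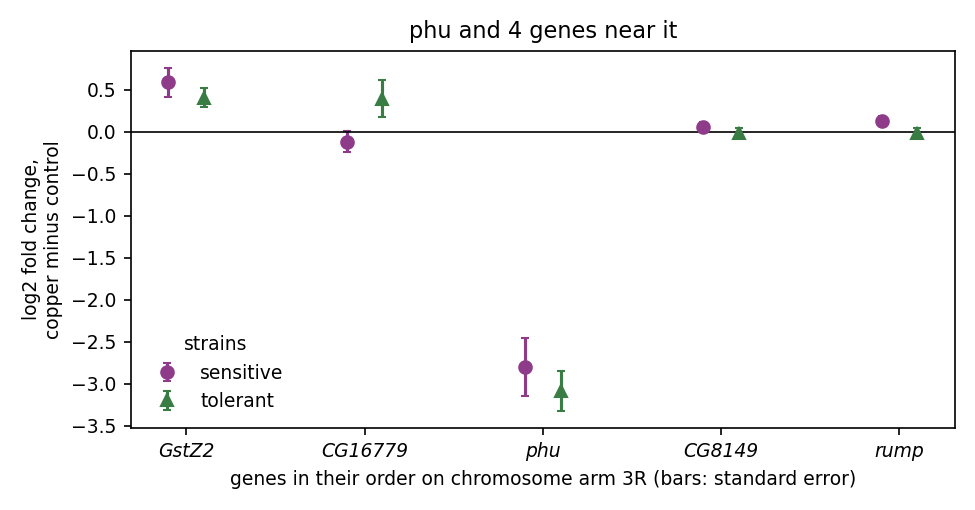
Log2 fold change with copper (y axis, copper minus control) of *phu* and 4 tested genes near it, in their order on chromosome arm 3R, in the sensitive strains (purple circles) and the tolerant strains (green triangles); bars are standard errors. *phu* lies near -3 in both classes and the 4 genes shown beside it lie between -0.12 and 0.59.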

How the data were processed

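The authors trimmed the paired-end reads (Trim Galore 0.5.0, cutadapt 1.18), aligned them (STAR 2.6, dm6 genome) and made the deposited table of raw read counts per gene with featureCounts 1.6.2, by strand and without multi-mapping reads, versions as given in the submitters' processing notes. All 34 count columns matched a library by its code, and 0 columns matched none. Names came from the gene table of Ensembl and RefSeq (16198 of 16495 IDs). Low counts were removed by filterByExpr, libraries were scaled by TMM, and edgeR 4.0.16 (R 4.3.3) quasi-likelihood fits with strain and treatment terms were adjusted by Benjamini-Hochberg over all genes tested. Alternatives were DESeq2 1.42.0, other scalings and filters, a replicate block, summed counts, and libraries or strains left out. SEs are the log2 fold change over the square root of F. Log2 CPM had a prior count of 0.5. Fits were tested on simulated data. Pairs of replicates differed beyond counting noise (chi-squared per degree of freedom 8.70 to 274 over 32 pairs). The labels do not say whether replicates are separate rearings, so *p*-values measure the spread between these libraries.

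Same-numbered control and copper libraries did not deviate together (r above 0.1 in 2 of 15 pairs, median -0.10), so numbers were not used as pairs. *phu* and the lists (alkaline phosphatases, other phosphatases, phosphate transport, metallothioneins, midgut digestive enzymes, copper cell region, Malpighian tubule, eggshell, spermatheca, haemocyte, male accessory gland and testis, nutrient response) were chosen with earlier results of these data known. Genes named are *phu*, the other *Alp* genes, the 5 highest and 3 lowest correlations with *phu*, the 5 highest after group means were subtracted, the 3 nearest genes on each side (1 is not reported here), the next gene by decrease, and the lowest, highest and called list members.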

Additional observations from a re-analysis of the deposited data

Results flagged for a closer look

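The copper effect differed between the classes for 4 of the 10 other alkaline phosphatase genes, by the class by copper term of one edgeR fit over all 34 libraries. Tolerant minus sensitive, the difference was 1.21 ± 0.23 on the log2 scale for *Alp6*, 2.41 ± 0.46 for *Alp10*, 2.33 ± 0.53 for *Alp9* and 1.05 ± 0.23 for *Alp5*. Over all genes 4.13% had an adjusted *p*-value below 0.05 in that test. It used the spread between libraries, and the term was not fitted with the strains as replicates.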

How the results depend on the processing

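The copper effect on *phu* in the sensitive strains lay between -2.90 and -1.89 over 12 alternatives and kept its call in 11. With 17 single libraries left out it lay between -2.96 and -2.41, always called. The exception was the fit with counts summed per strain (-2.75, edgeR adjusted *p*-value = 0.127). In that fit 0 genes were called down-regulated and 0 up-regulated in the sensitive strains (1103 and 1934 at an unadjusted edgeR *p*-value below 0.05; DESeq2 was not run on sums), and 0 of the other *Alp* genes. A minimum of 10 counts in every library removes *phu* there and gives no value. The counts of genes called in the sensitive strains, 731 down-regulated and 223 up-regulated, became 377 and 120 without COR-018, 415 down-regulated without JUT-008, and 369 and 128 with the libraries low in male transcripts, where 1 other *Alp* gene was called. In the tolerant strains 1 other *Alp* gene was called with library size alone, 2 with DESeq2, 3 without GIM-012, and 0 to 1 with single libraries left out (1 without GIM-012 control replicate 1 or 4 or MUN-008 control replicate 2). Without GIM-012, 28.8% of all genes had an unadjusted edgeR *p*-value below 0.05, against 11.8% in the main tolerant fit.

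In COR-018 DESeq2 called *phu* (-2.77, adjusted *p*-value = 0.00146), and single libraries moved it between -3.22 and -1.45. In JUT-008 they moved it between -3.30 and -2.76. With Spearman's rho, 0 of the 5 genes most like *phu* within groups stayed among the first 5, and 0 did without COR-018 control replicate 4.

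The replicate number as a block left *phu* at -2.68 in the sensitive strains (edgeR adjusted *p*-value = 0.000241). It ended the calls of JUT-008 (-3.03, edgeR adjusted *p*-value = 0.0712) and of the basal difference (largest 3.23 on the log2 scale, edgeR adjusted *p*-value = 0.0602). A block nested in strain gave 420 genes down-regulated and 122 up-regulated, with *phu* at -2.86 (edgeR adjusted *p*-value = 0.00165). The nested block, the choice of libraries by male transcripts and the likeness without COR-018 control replicate 4 were added after seeing the data.

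Signs that turned belonged to changes that were not called. *CG2772* in the sensitive strains had 0.062 without JUT-008 and 0.49 with the libraries low in male transcripts. In the tolerant strains *Alp5* had -0.000482 with library size alone and -0.34 without GIM-012. *Alp12* had 0.029 without MUN-020 and 0.086 without MUN-008, *Alp6* had 0.052 and 0.071, and *Alp8* had 0.16 without MUN-008. With single libraries left out, *Alp12* ranged from -0.065 to 0.022, *Alp8* from -0.47 to 0.046 and *Alp5* from -0.078 to 0.074, and the class by copper term from -0.79 to 0.32 for *Alp7* and from -0.10 to 0.90 for *Alp11*. Depth limits JUT-008, where *phu* had 7 to 12 reads after copper, *Alp7* (at most 34) and *Alp11* (at most 44).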

Other observations

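Over all genes tested, 5.94% were called down-regulated and 1.81% up-regulated in the sensitive strains. The shares in the tolerant strains were 0.509% and 1.02%. Of 13 nutrient response genes, 4 were called down-regulated and 2 up-regulated in the sensitive strains, and 1 was called in the tolerant strains. *sug*, a sugar-responsive transcription factor gene, was called in both classes, at -1.77 ± 0.17 and -0.78 ± 0.18. *bmm*, a triglyceride lipase gene, was called up-regulated in the sensitive strains at 0.93 ± 0.08 and had 0.43 ± 0.05 in the tolerant strains, below the fold threshold. Of 4 haemocyte genes tested, *Hml* (-0.78 ± 0.22) and *eater* (-0.59 ± 0.20) were called down-regulated in the sensitive strains, whereas *Hml* (0.74 ± 0.13) and *NimC1* (0.68 ± 0.13) were called up-regulated in the tolerant strains. Of 2 spermathecal genes, *Send1* was called in the sensitive strains at -1.65 ± 0.25. Of the 9 male genes, 2 were called down-regulated in the sensitive strains and none was tested in the tolerant strains.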
